A study of Mus musculus with 24 samples.

Results

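The genes described here encode the proteins of the mitochondrial ribosome, and they were followed in mouse adipocyte precursors from white and brown fat that differentiated in the presence or absence of EGCG, which stands for epigallocatechin gallate and is the main catechin in green tea. All protein-coding genes whose symbol begins with Mrpl (large subunit) or Mrps (small subunit) followed by a number were taken from the GENCODE vM1 annotation, which gave 77 of the 37310 genes in the files, 47 with an Mrpl and 30 with an Mrps symbol. Stromal vascular cells, the mixed non-adipocyte fraction of fat, had been taken from C57BL/6 mice aged 6 weeks, out of the inguinal depot for white (WAT) and the interscapular depot for brown (BAT) fat, grown to near confluence, and induced to become adipocytes with insulin, dexamethasone and 3-isobutyl-methylxanthine, followed by insulin and the thyroid hormone T3. EGCG was given in the medium, and the control cells received DMSO. Cells were harvested for RNA after 4 or 8 days. This made 8 groups of 3 libraries: WAT control, WAT with EGCG, BAT control and BAT with EGCG, each on both days. The dose of EGCG is not given in the labels, nor is whether replicates were separate cultures, so the p-values below measure the spread between these libraries, which may be technical.

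Mitochondria make the small set of respiratory chain proteins encoded by their own DNA on a ribosome of their own. Its 2 RNAs are transcribed from mitochondrial DNA, whereas its proteins are encoded in the nucleus, made in the cytoplasm and imported. Some of these proteins have a counterpart in bacterial ribosomes, and others are found only in mitochondria. Brown adipocytes, which burn fuel to make heat, are rich in mitochondria, and white adipocytes hold fewer of them.

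The values are FPKM, that is, reads on a gene divided by its length and by the total of its library. They came in 2 tables, with replicates 1 and 2 in the first and replicate 3 in the second. In both, each library is scaled to its own total. Single genes differed between the tables by unlike factors, given below, and the cause was not tested. The main tests compare the 16 libraries of the first table, beside which replicate 3 is given as a direction, and replicate 3 enters a test only in the alternative fits of both tables. The first table held 39452696 to 52893848 reads on genes per library and the second 16392420 to 41675643. The WAT day 8 EGCG library of replicate 3 stood apart, since 5 genes took 61.0% of its reads, against at most 10.5% in any other library. The genes studied here had 0.0847% of the reads in it and 0.17% to 0.31% in the others. No main test uses it, and the alternative fits of both tables were made with it and without it.

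Of the 77 genes, 76 reached 1 FPKM in at least 2 of the 16 libraries and were tested, among 14095 genes in all. The gene that was not tested, Mrpl53, had no read in any library of the first table and 0.258 to 1.19 FPKM in the second, where the most reads it had in a library was 16. On the annotation 87.1% of its exonic bases lie in Ccdc142 on the same strand, so its reads cannot be assigned with certainty. Mrps36-ps1 was kept because it is annotated as protein-coding although its symbol is that of a pseudogene, and it had 1.52 to 4.05 FPKM in the first table and at most 0.483 in the second. The median of their mean levels was 17.2 FPKM against 7.81 for all tested genes, and 58 of the 77 had a mean between 10 and 50 FPKM. The highest was Mrpl52, a mitochondria-specific protein of the large subunit, at a mean of 82.4 FPKM, followed by Mrpl42 at 51.7, Mrpl20 at 50.3, Mrps21 at 49.0 and Mrpl34 at 48.8. Mrps36-ps1 at 2.52, Mrpl19 at 3.36, Mrps35 at 3.74 and Mrps25 at 4.00 were the lowest of those tested. The order between neighbours was loose: of 75 neighbouring pairs in the order of mean level, only Mrpl15 (6.95 FPKM) and Mrpl47 (5.14 FPKM) were separated in all 16 libraries. The tested Mrpl genes had a median mean level of 20.1 FPKM and the Mrps genes of 14.5.

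The genes were spread over 17 chromosomes, with 10 on chromosome 11 and 9 on chromosome 17, and were short, with a median length of 1285 bases against 3076 for tested protein-coding genes. Of the 77, 16 (20.8%) started within 1000 bases of a protein-coding gene on the other strand that runs away from them, against 10.7% of tested protein-coding genes. Mrps12, for example, starts 171 bases from Sars2, the mitochondrial seryl-tRNA synthetase. Exonic bases were shared with another gene in 26 members, and the share was over 10% in 17. Reads of such genes may be split or lost in counting, and whether counting used the strand is not given in the sources used here. The level in replicate 3 divided by the mean of replicates 1 and 2, taken as the median over the 7 groups without the library that stood apart, was 1.10 at the median member and lay between 0.8 and 1.5 in 69 of 76. It was 2.57 for Mrpl12, 1.78 for Mrps34, 1.75 for Mrpl18, 1.67 for Mrps6, 1.66 for Mrpl43, 1.52 for Mrpl14 and 0.105 for Mrps36-ps1, so for these genes levels are compared only within a table.

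The stretch of DNA just before each gene was looked up in RefSeq (build GRCm38.p6, 250 bases before to 50 bases after the annotated start), where 67 of the 77 members were found. The median GC content was 58.3% in members and 60.7% in tested protein-coding genes. In all, 5 short motifs were counted on both strands: GCGCANGCG, the core of the site of nuclear respiratory factor 1 (NRF1), CCGGAAG of the ETS family, to which GABP (also called NRF2) belongs, AANATGGCG of YY1, AAGGTCA of the estrogen-related receptors and CACGTG, the E-box. None of the spelled motifs holds another. CCGGAAG was present in 35.8% of the members found, against 19.4% of tested protein-coding genes and 9.93% of all genes in the RefSeq table. The NRF1 core was in 22.4%, 15.2% and 7.03%, and AANATGGCG in 14.9%, 5.81% and 2.76%, in the same order. For AAGGTCA the shares were 5.97%, 3.74% and 5.38%, and for CACGTG they were 7.46%, 11.9% and 8.09%. These are matches of letters and do not show that a factor was bound. The 4 windows below belong to genes that the results turn on, 2 that were lower with EGCG on day 4 in both depots (Mrpl12 and Mrps30) and 2 that were higher with it in BAT on day 8 (Mrpl33 and Mrpl52), with every match to the motifs in capitals and the rest in lower case. Coordinates are those of GRCm38.p6, and the sequences read 5′ to 3′ on the strand of the gene.
Mrpl12, chr11:120484387-120484686, plus strand: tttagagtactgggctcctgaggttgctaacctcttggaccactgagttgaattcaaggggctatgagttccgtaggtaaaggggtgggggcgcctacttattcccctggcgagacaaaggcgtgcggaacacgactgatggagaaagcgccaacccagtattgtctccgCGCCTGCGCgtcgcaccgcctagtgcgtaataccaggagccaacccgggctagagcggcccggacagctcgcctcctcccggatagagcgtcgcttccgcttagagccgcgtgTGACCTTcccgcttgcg
Mrps30, chr13:118387203-118387502, minus strand: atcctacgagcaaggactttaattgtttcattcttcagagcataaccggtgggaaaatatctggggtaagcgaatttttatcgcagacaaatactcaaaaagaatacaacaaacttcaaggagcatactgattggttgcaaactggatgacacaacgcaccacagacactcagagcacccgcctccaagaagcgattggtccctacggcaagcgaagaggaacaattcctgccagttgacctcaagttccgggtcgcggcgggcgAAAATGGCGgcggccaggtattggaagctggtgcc
Mrpl33, chr5:31613701-31614000, plus strand: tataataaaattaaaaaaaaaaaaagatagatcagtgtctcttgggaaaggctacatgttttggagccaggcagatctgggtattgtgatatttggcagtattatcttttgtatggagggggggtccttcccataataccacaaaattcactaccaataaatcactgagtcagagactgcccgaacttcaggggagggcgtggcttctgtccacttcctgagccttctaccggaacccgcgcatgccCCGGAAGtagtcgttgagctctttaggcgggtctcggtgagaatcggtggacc
Mrpl52, chr14:54426659-54426958, plus strand: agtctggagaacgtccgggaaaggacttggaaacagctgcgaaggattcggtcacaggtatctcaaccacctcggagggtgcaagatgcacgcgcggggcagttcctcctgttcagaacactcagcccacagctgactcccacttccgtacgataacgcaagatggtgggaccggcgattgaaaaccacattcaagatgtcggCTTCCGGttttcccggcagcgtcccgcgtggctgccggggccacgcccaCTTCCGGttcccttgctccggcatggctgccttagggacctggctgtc
The window of Mrpl12 held the NRF1 core before the start and AAGGTCA (on the other strand) after it. Mrps30 held AANATGGCG, Mrpl33 had 1 ETS motif and Mrpl52 had 2. Among members lower with EGCG in BAT on day 8 and found in RefSeq, 11 of 40 held CCGGAAG and 10 of 40 the NRF1 core, and among those that were higher 4 of 6 and 1 of 6 did. Of those not called, 8 of 20 and 4 of 20 did. A link between motif and direction was not tested.

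In control cells the genes were at a higher level in BAT than in WAT on both days. The summed FPKM of the 77 genes in WAT was 1493, 1411 and 1748 on day 4 (replicates 1, 2 and 3) and 1271, 1342 and 1468 on day 8, whereas in BAT it was 1862, 1967 and 2315 on day 4 and 1927, 1988 and 2197 on day 8. Every BAT control library thus lay above every WAT control library of its table and day. On day 4, 66 of the 76 tested genes (86.8%) were called higher in BAT and none lower, where 41.4% of all tested genes were called higher and 14.4% lower at an adjusted p under 0.05 (limma on log2(FPKM + 1), Benjamini-Hochberg). With median-ratio scaling, 41 genes were higher and none lower on day 4, and the members' median log2 difference was 0.22. Shares of all tested genes, here and below, are for the values as deposited. On day 8, 69 of 76 (90.8%) were higher and none lower, against 31.6% and 22% of all tested genes. Median log2 differences, on the log2(FPKM + 1) scale used throughout, were 0.38 on day 4 and 0.54 on day 8, while those of all tested genes were 0.15 and 0.05. All calls on both days had the same sign in replicate 3 as deposited, and after median-ratio scaling 64 of 66 on day 4 and 69 of 69 on day 8 did.

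**Figure D1:**
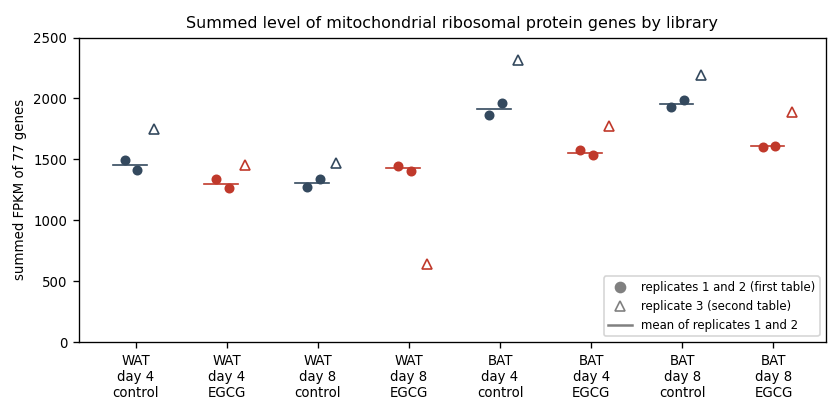
Summed FPKM of the 77 mitochondrial ribosomal protein genes (y axis) in each library of the 8 groups (x axis), with filled circles for replicates 1 and 2, a line at their mean and open triangles for replicate 3 from the second table. BAT control libraries lay between 1862 and 1988 and WAT control libraries between 1271 and 1493 in the first table, and the WAT day 8 EGCG library of replicate 3, at 643.3, stood apart.

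The 2 largest depot differences on day 8 were those of Mrpl34 and Mrpl42. Mrpl34, the counterpart of a small bacterial large-subunit protein, was at 31.4, 33.5 and 39.8 FPKM in WAT (replicates 1, 2 and 3) and 76.1, 73.3 and 84.1 in BAT. The groups did not overlap, and the log2 difference was 1.18 (SE 0.11, adjusted p = 4.49e-06, limma). Mrpl42, a mitochondria-specific protein of the large subunit, was at 30.7, 40.4 and 35.9 in WAT and 76.9, 75.5 and 77.1 in BAT, a log2 difference of 1.09 (SE 0.10, adjusted p = 3.3e-06, limma). Mrps35 (0.97), Mrpl38 (0.92) and Mrps36 (0.92) came next. On day 4 the order was different, with Mrpl12 (0.76), Mrps6 (0.73), Mrpl51 (0.73), Mrps27 (0.66) and Mrpl46 (0.63) at the top. At the other end, Mrps30 was at 25.3, 22.7 and 29.7 in WAT and 22.3, 25.2 and 29.5 in BAT on day 4, and these values overlapped, whereas on day 8 it was 0.79 (SE 0.08) higher in BAT on the log2 scale (adjusted p = 1.01e-05, limma). With the values as deposited, Mrpl52 and Mrpl48 were not called on either day. Mrpl52, the most abundant member, had a log2 difference of -0.18 (SE 0.08) on day 8, with a 95% interval from -0.36 to 0.01. By symbol, 42 of 46 Mrpl and 27 of 30 Mrps genes were higher in BAT on day 8.

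The lists that mark the cells were read beside this difference. The 10 adipocyte markers summed to 5212 to 6119 FPKM in WAT control and 10740 to 10960 in BAT control on day 8, and to 2183 to 2904 and 5321 to 6984 on day 4. Brown adipocyte markers (6 genes) summed to 207.7 to 236.4 FPKM in BAT control and 27.1 to 33.7 in WAT control on day 8, with Ucp1, the uncoupling protein of brown fat, at 4.20 to 6.97 FPKM in BAT and listed at 0 in all 3 WAT libraries. Of the brown markers, 2 were called higher in BAT on day 4 and 5 on day 8. Fibroblast and precursor markers (6 genes) were lower in 5 on each day, with 1 higher on day 4. Macrophage markers (5 tested) were higher in 4 on day 4 and lower in 2 on day 8. Endothelial markers (5 tested) were lower in 3 on each day, with 1 higher on day 4. Skeletal muscle markers (3 tested) were lower in 2 on day 4 and higher in 1 on day 8. In bulk RNA, fewer cells of a type and less RNA per cell cannot be told apart. The part of these markers in the depot difference was not tested.

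Between day 4 and day 8 the control cells of each depot were compared, and the difference between the depots in this change was not tested. In WAT, 32 of 76 genes (42.1%) were lower on day 8 and 7 (9.21%) higher, where 33.2% of all tested genes were lower and 27.7% higher. In BAT, 21 of 76 (27.6%) were higher and 16 (21.1%) lower, against 28.7% and 40.4% of all tested genes. Median log2 changes of the members were -0.14 in WAT and 0.03 in BAT. With median-ratio scaling, which sets the typical gene of each library equal, they were -0.09 and 0.20, and 41 genes were then higher and 8 lower in BAT. Mrpl17, a large-subunit protein with a bacterial counterpart, fell most in WAT, from 20.4, 19.8 and 22.6 FPKM on day 4 to 10.3, 10.4 and 12.2 on day 8 (log2 change -0.89, SE 0.05, adjusted p = 5.79e-08, limma), and it also fell in BAT (-0.46). In BAT the lowest changes were those of Mrpl49 (-0.80, SE 0.07), Mrps6 (-0.78, SE 0.07) and Mrps25 (-0.78, SE 0.07), and the highest those of Mrps36 (0.64, SE 0.08), Mrpl54 (0.61, SE 0.08) and Mrps28 (0.60, SE 0.12). Mrps25 shares 53.7% of its exonic bases with another gene, and 43.8% of those of Mrps6 lie in Slc5a3 on the same strand. Mrpl2, Mrpl38 and Mrps30 were called lower in WAT and higher in BAT, and the share of all tested genes with this pattern was not counted.

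On day 4, EGCG went with lower levels of the genes in both depots. Summed FPKM with EGCG was 1339, 1264 and 1456 in WAT and 1578, 1535 and 1775 in BAT, below every control library of the same depot, day and table. In BAT, 59 of 76 genes (77.6%) were lower with EGCG and 1 (1.32%) was higher, where 20.6% of all tested genes were lower and 27.9% higher. In WAT, 29 genes (38.2%) were lower and 4 (5.26%) higher, against 19.3% and 34.4%. These shares of all tested genes hold for the values as deposited in all 16 libraries. Those under another scaling or without a library are not given here, so the counts below have no background. The median log2 change of the members was -0.30 in BAT and -0.14 in WAT, and that of all tested genes was 0.03 and 0.09. Replicate 3 had the sign of the call in 59 of 60 called genes in BAT and 31 of 33 in WAT. Without replicate 2 of BAT day 4 control, 39 genes were lower in BAT. With median-ratio scaling 50 genes were lower in WAT, and without 1 library at a time it was 15 to 30, with 15 without replicate 2 of WAT day 4 EGCG and 18 without replicate 1 of WAT day 4 control.

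**Figure D2:**
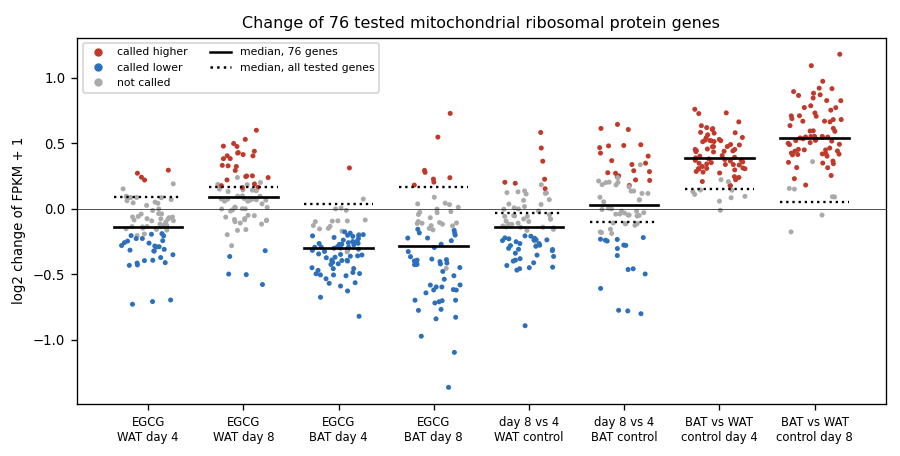
Log2 change of FPKM + 1 (y axis) of the 76 tested genes in the 8 pairwise comparisons (x axis), 1 point per gene coloured by its call at an adjusted p under 0.05, with the median of the 76 genes as a solid line and that of all 14095 tested genes as a dotted line. The members' medians lay below those of all genes in the 4 EGCG comparisons and above them in both BAT against WAT comparisons, and in WAT on day 8 the members' median of 0.09 turned to -0.10 with median-ratio scaling.

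Mrpl12 was the gene with the largest fall in BAT on day 4. It encodes the stalk protein of the large subunit, which in ribosomes recruits translation factors. Its level in BAT was 29.9, 35.2 and 88.7 FPKM in control (replicates 1, 2 and 3) and 18.1, 17.8 and 43.5 with EGCG, and in WAT it was 20.0, 17.6 and 49.3 in control and 12.1, 10.2 and 26.5 with EGCG. Within each table every EGCG library lay below every control library of its depot. The log2 changes were -0.82 (SE 0.09) in BAT (adjusted p = 1.81e-05, limma) and -0.71 (SE 0.09) in WAT (adjusted p = 5.87e-05, limma). In WAT the largest fall was that of Mrps30, named for the small subunit but placed in the large subunit in structures of the mammalian mitochondrial ribosome. It went from 25.3, 22.7 and 29.7 FPKM to 14.8, 13.3 and 16.6, a log2 change of -0.73 (SE 0.08, adjusted p = 1.98e-05, limma). Mrps28, the mitochondrial protein related to bacterial S1, followed at -0.70 (SE 0.12), from 13.9, 12.2 and 15.6 to 8.74, 6.66 and 8.28 FPKM. Mrps16, a small-subunit protein with a bacterial counterpart, fell by 0.43 in WAT and by 0.59 in BAT on the log2 scale. Mrpl3, a protein of the core of the large subunit, fell by 0.63 in BAT, from 25.5, 26.6 and 27.1 to 15.8, 17.2 and 15.8 FPKM.

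Few genes went the other way on day 4. Mrpl33, with a counterpart in the bacterial large subunit, was the 1 gene higher in BAT, from 23.4, 23.8 and 26.8 FPKM to 29.2, 29.9 and 30.5 (log2 change 0.31, SE 0.07, adjusted p = 0.00212, limma). Mrps10, a small-subunit protein with a bacterial counterpart, rose in WAT from 6.61, 6.34 and 6.94 to 8.16, 8.16 and 7.60 FPKM (0.29, SE 0.06, adjusted p = 0.00142, limma) and fell in BAT from 9.03, 9.16 and 9.21 to 7.77, 7.76 and 7.65 (-0.20, SE 0.06). The difference between these effects was -0.50 (SE 0.08, adjusted p = 0.00131, limma). Mrpl40 and Mrpl14 were called higher in WAT at 0.24 and 0.22 as deposited, and with both tables in 1 fit after median-ratio scaling their changes were -0.00159 and -0.0422.

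On day 8 the genes were lower with EGCG in BAT, and in WAT their direction depended on the scaling. In BAT, summed FPKM was 1599, 1613 and 1892 with EGCG against 1927, 1988 and 2197 in control, and 46 of 76 genes (60.5%) were lower with EGCG and 8 (10.5%) higher, where 26.1% of all tested genes were lower and 46.5% higher. In WAT, summed FPKM was 1448 and 1407 with EGCG against 1271 and 1342 in control in the first table. There 26 of 76 genes (34.2%) were higher and 5 (6.58%) lower, a share of higher genes under that of all tested genes, which were 44.7% higher and 18.9% lower. The median log2 change of the members was 0.09 as deposited, -0.10 with median-ratio scaling and -0.05 with quantile normalization, with 12 genes higher and 22 lower, and 15 higher and 18 lower, under the second and the third. All tested genes had a median of 0.17 as deposited, which median-ratio scaling brings to about 0, and the members' median lay below it in both. In BAT the direction held, with medians of -0.28, -0.47 and -0.38. Replicate 3 had the sign of the call in 53 of 54 called genes in BAT, and in 5 of 31 in WAT as deposited, where the library that stood apart is the EGCG arm, or 26 of 31 after median-ratio scaling.

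**Figure D3:**
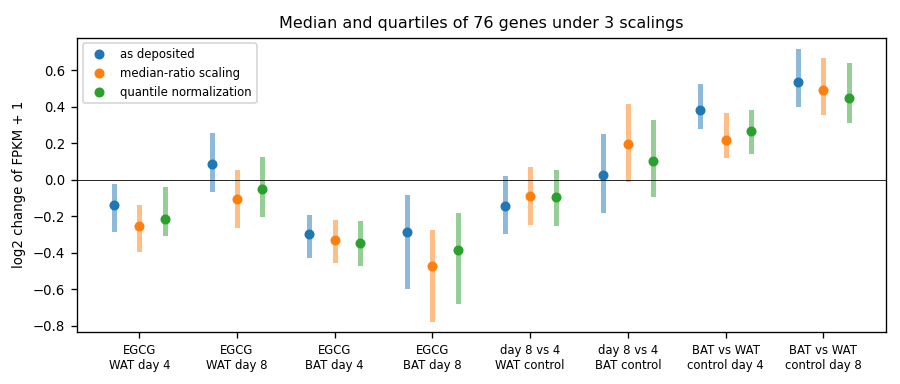
Median (circle) and quartiles (bar) of the log2 change of the 76 tested genes (y axis) in the 8 pairwise comparisons (x axis) with FPKM as deposited, with median-ratio scaling and with quantile normalization. The medians of EGCG in WAT on day 8 lay at 0.09, -0.10 and -0.05, and no other comparison changed the sign of its median.

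In BAT on day 8, Mrps35 and Mrpl12 fell most. Mrps35, a mitochondria-specific protein of the small subunit, was at 7.72, 7.60 and 7.97 FPKM in control and 2.15, 2.58 and 2.69 with EGCG, a log2 change of -1.36 (SE 0.08, adjusted p = 3.44e-08, limma). Mrpl12 was at 34.3, 33.8 and 87.6 in control and 15.1, 15.6 and 43.1 with EGCG, a log2 change of -1.10 (SE 0.09, adjusted p = 4.88e-07, limma). For both genes the control libraries lay above the EGCG libraries with a wide gap in each table, and these were the only 2 members that changed by a log2 value over 1. Mrpl44 (-0.97, SE 0.09), a large-subunit protein with a ribonuclease-like fold, Mrpl14 (-0.84, SE 0.08) and Mrpl55 (-0.83, SE 0.10) came next. Mrps36, named for the small subunit but known as a component of the 2-oxoglutarate dehydrogenase complex of the citric acid cycle, went from 38.3, 38.0 and 37.7 FPKM to 21.8, 22.2 and 27.2 (-0.77, SE 0.08, adjusted p = 5.33e-06, limma).

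Against this trend, Mrpl52 rose in BAT on day 8 from 58.7, 62.1 and 69.6 FPKM to 100.3, 101 and 103, a log2 change of 0.73 (SE 0.08, adjusted p = 7.85e-06, limma). It is the most abundant member, and the EGCG libraries lay well above control in each table. On day 4 it was not called in BAT (0.00, 95% interval -0.18 to 0.19). Mrpl33 rose as well, from 17.7, 20.3 and 22.4 to 28.7, 27.5 and 32.8 FPKM (0.55, SE 0.07, adjusted p = 1.17e-05, limma). Both kept their call under all 3 scalings. Without replicate 2 of BAT day 8 control or of BAT day 8 EGCG, 5 and 4 genes in all were higher. The smaller rises of Mrps18b (0.29), Mrpl36 (0.28) and Mrpl54 (0.24) were not called with median-ratio scaling.

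In WAT on day 8 the 5 genes that fell were Mrpl12 (-0.58, SE 0.09), Mrpl30 (-0.50, SE 0.05), Mrps6 (-0.50, SE 0.07), Mrps35 (-0.37, SE 0.08) and Mrpl44 (-0.32, SE 0.09), and all 5 were lower under each scaling and were also lower in BAT on day 8. Mrpl30 was at 46.0 and 49.8 FPKM in control and 33.8 and 33.1 with EGCG (replicates 1 and 2). Without replicate 1 of WAT day 8 control, 8 genes were lower. Of the 26 genes that rose, 12 were called under all 3 scalings. Mrpl54, a mitochondria-specific protein of the large subunit, rose most, from 28.5 and 29.1 to 45.0 and 43.2 FPKM (0.60, SE 0.08, adjusted p = 3.54e-05, limma). Mrpl36 went from 21.9 and 23.9 to 33.4 and 33.5 (0.53, SE 0.06, adjusted p = 1.13e-05, limma), Mrps18b from 12.5 and 13.7 to 18.1 and 19.8, and Mrpl34 from 31.4 and 33.5 to 45.5 and 45.6. In each of these 4 genes both EGCG libraries lay above both control libraries. The 8 genes called higher in BAT on day 8, of which 2 (Mrpl33 and Mrpl52) were called under all 3 scalings, were Mrpl19, Mrpl33, Mrpl36, Mrpl52, Mrpl54, Mrps14, Mrps18b and Mrps33.

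**Figure D4:**
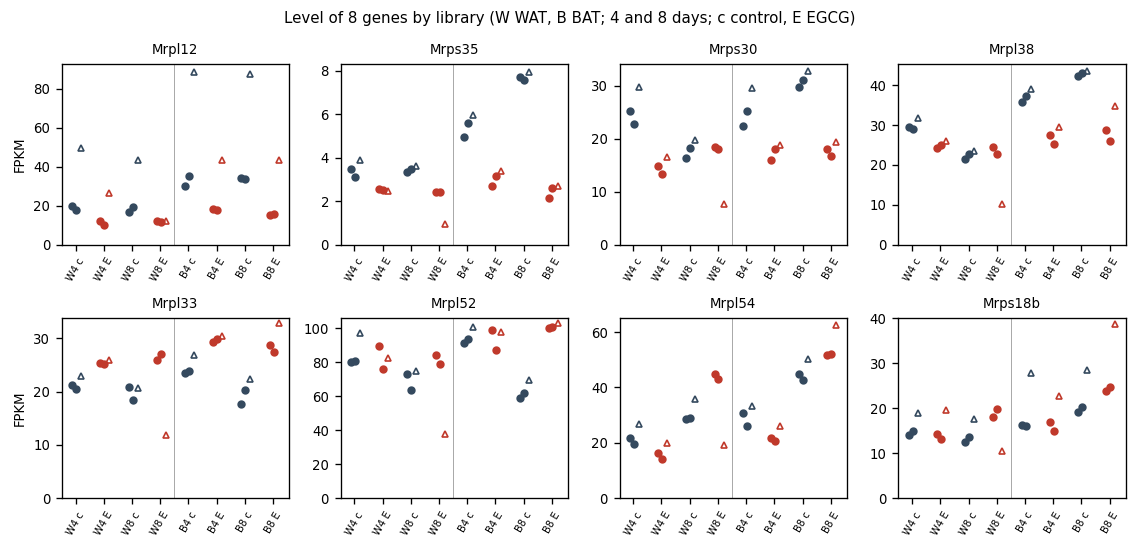
FPKM (y axis) of 8 genes in every library of the 8 groups (x axis; W for WAT, B for BAT, 4 and 8 for the day, c for control, E for EGCG), with circles for replicates 1 and 2 and triangles for replicate 3, which is from the second table. Mrpl12 and Mrps35 were below control with EGCG in all 4 settings, Mrpl33 above it in the first table, and the WAT day 8 EGCG triangle is the library that stood apart.

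The difference of the EGCG effects between depots was tested directly. An effect is the signed log2 change with EGCG, so a lower effect is a more negative or less positive change, not a smaller one. On day 8, 52 of 76 genes (68.4%) had a lower effect in BAT than in WAT and 2 (2.63%) a higher one, where 19.7% and 19.4% of all tested genes did. With median-ratio scaling the counts were 53 and 2, and with quantile normalization 46 and 2. Replicate 3 had the sign of the call in 3 of 54 genes as deposited, where the library that stood apart enters, and in 53 of 54 after median-ratio scaling. The genes with the smallest adjusted p were Mrpl38, with a difference of -0.72 (SE 0.08, adjusted p = 4.4e-05, limma), and Mrps35, with -0.999 (SE 0.12, adjusted p = 6.78e-05, limma). Mrpl38 had gone from 42.4, 43.0 and 43.7 to 28.8, 26.1 and 34.9 FPKM in BAT and stood at 21.6 and 22.6 in control and 24.6 and 22.8 with EGCG in WAT in the first table, where the EGCG values lay above control by little and the gene was not called (0.10). In the other direction 1 of 2 calls was lost without any of several single libraries (replicate 1 of WAT day 8 control, either replicate of WAT day 8 EGCG, replicate 1 of BAT day 8 control, or either replicate of BAT day 8 EGCG). The 2 genes were Mrpl52 (0.48, SE 0.12, adjusted p = 0.00772, limma) and Mrps6 (0.31, SE 0.10, adjusted p = 0.0307, limma). In all, 7 genes were called lower in BAT and higher in WAT on day 8, namely Mrpl2, Mrpl17, Mrpl18, Mrpl34, Mrpl35, Mrps24 and Mrps28. Of their rises in WAT, those of Mrpl34 and Mrps24 were called under all 3 scalings and the other 5 as deposited alone. The share of all tested genes with these opposite calls was not counted. On day 4, 17 genes (22.4%) had a lower effect in BAT and none a higher one, against 16.1% and 12%, and with median-ratio scaling 4 were lower and 1 higher. Leaving out 1 library at a time gave 5 to 18 lower, with 5 without replicate 2 of WAT day 4 control or replicate 1 of WAT day 4 EGCG, 7 and 10 without replicates 2 and 1 of BAT day 4 control, and 8 and 10 without replicates 1 and 2 of BAT day 4 EGCG.

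**Figure D5:**
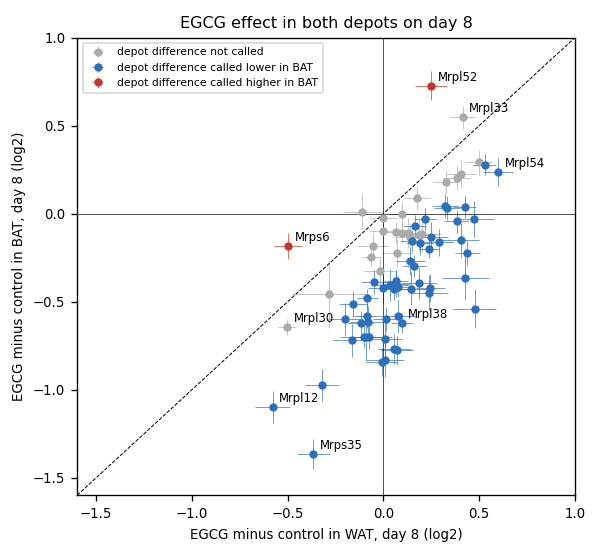
Log2 change with EGCG on day 8 in WAT (x axis) and in BAT (y axis) for the 76 tested genes, with bars of 1 standard error, coloured by the test of the difference between depots; the dashed line marks equal effects. Of the 76 genes, 52 lay below the line with a called difference and Mrpl52 and Mrps6 lay above it.

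Between days, the EGCG effect in WAT was higher on day 8 than on day 4 in 37 genes (48.7%) and lower in 3 (3.95%), where 29.7% and 19.7% of all tested genes were. The gene with the smallest adjusted p was Mrpl54, with a difference of 1.01 (SE 0.11, adjusted p = 2.5e-05, limma), having fallen by 0.41 on day 4 and risen by 0.60 on day 8, and Mrpl17 followed with 0.61 (SE 0.07, adjusted p = 4.84e-05, limma). The largest difference was that of Mrps28 at 1.13 (SE 0.17). The 2 genes lower with the smallest adjusted p were Mrpl30 (-0.22, SE 0.07) and Mrps6 (-0.29, SE 0.10). In BAT, 12 genes (15.8%) had a higher effect on day 8 and 7 (9.21%) a lower one, against 34.7% and 20.6%, with Mrpl52 (0.72, SE 0.12) and Mrpl36 (0.53, SE 0.09) in the first direction and Mrps35 (-0.69, SE 0.12) and Mrpl14 (-0.69, SE 0.11) in the other. With median-ratio scaling 25 genes were higher and 5 lower in WAT, and with quantile normalization 24 and 7. Replicate 3 had the sign of the call in WAT in 3 of 40 genes as deposited, where the library that stood apart enters, and in 35 of 40 after median-ratio scaling. In WAT 23 genes were higher without replicate 2 of day 4 EGCG or replicate 1 of day 8 EGCG, and 0 or 1 lower without replicate 1 of EGCG day 4, replicate 2 of EGCG day 8, replicate 2 of control day 4 or replicate 1 of control day 8. The median difference in BAT was 0.02 as deposited and -0.13 with median-ratio scaling, under which 5 genes were higher and 25 lower.

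Across all 4 settings, 4 genes were lower with EGCG each time (Mrpl12, Mrpl30, Mrps6 and Mrps35), under each of the 3 scalings. The shares of all tested genes that were lower, or higher, each time were not counted. Mrpl33 was the 1 gene higher each time, but in WAT on day 4 it was not called with median-ratio scaling (0.15). In replicate 3 it was above control with EGCG in WAT on day 4 (0.16) and in BAT on both days (0.18 and 0.53). With the values as deposited, Mrpl49, Mrps15 and Mrps36-ps1 were called in none of the 4 settings. Mrpl49, which starts 135 bases from the ribosomal protein gene Fau on the other strand, had been among the genes that fell most from day 4 to day 8, and with EGCG it was at 15.3, 13.9 and 16.6 FPKM in BAT on day 8 against 14.7, 16.7 and 17.0 in control.

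The paralogs related to bacterial protein S18 had different calls, and the differences between them were not tested. Mrps18c is the small-subunit counterpart, Mrps18b is a second small-subunit protein, and Mrps18a sits in the large subunit. Mrps18c fell with EGCG in BAT by 0.41 on day 4 and 0.40 on day 8 on the log2 scale, from 20.6, 20.5 and 21.8 to 14.0, 16.7 and 17.7 FPKM on day 8. Mrps18a fell in BAT on day 4, from 14.7, 15.5 and 16.8 to 9.79, 10.8 and 11.2 (-0.51, SE 0.09, adjusted p = 0.00063, limma), and was not called on day 8 (-0.12), although it was lower there with median-ratio scaling. With the values as deposited, Mrps18b was called lower in none of the settings, and it rose in BAT on day 8 from 19.1, 20.2 and 28.5 to 23.9, 24.8 and 38.7, a call that was lost with median-ratio scaling. On the annotation 30.5% of the exonic bases of Mrps18b lie under Gm16279 on the other strand. With the values as deposited, Mrps12, a protein of the decoding centre, was lower in BAT on day 4 alone among the 4 settings (-0.28, SE 0.10, adjusted p = 0.0429, limma). Mrpl45, which tethers the large subunit to the inner membrane, was likewise called, as higher, in WAT on day 8 alone as deposited (0.42, SE 0.06, adjusted p = 8.11e-05, limma).

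Members with a listed bacterial counterpart and the other members were set side by side. The others include Mrps18a, Mrps18b, Mrps36 and Mrps36-ps1, so they are not all mitochondria-specific ribosomal proteins. With EGCG in BAT on day 4, 39 of 46 genes with a bacterial counterpart were lower and 20 of 30 others, and on day 8 it was 30 of 46 and 16 of 30. By symbol alone, which counts Mrps18a, Mrps30 and Mrps36 with the small subunit, Mrpl genes were lower in 34 of 46 and Mrps genes in 25 of 30 on day 4, and in 28 of 46 and 18 of 30 on day 8. The ratio of summed Mrpl to summed Mrps FPKM stayed between 2.05 and 2.28 in all 24 libraries.

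The 2 RNAs of the mitochondrial ribosome fell with EGCG in all 4 settings, WAT on day 8 included, and under each scaling. mt-Rnr1, the small-subunit RNA, was at 350.0, 398.6 and 360.2 FPKM in WAT control on day 8 and at 135.1, 132.4 and 54.4 with EGCG. The last of these values is from the library that stood apart. In BAT on day 8 mt-Rnr1 was at 717.1, 648.5 and 659.2 in control against 137.9, 140.5 and 144.0 with EGCG. The log2 changes on day 8 were -1.48 in WAT (adjusted p = 4.43e-08, limma) and -2.28 in BAT (adjusted p = 4.81e-10, limma), and those of mt-Rnr2, the large-subunit RNA, were -0.97 and -1.94. How ribosomal RNA was removed from the libraries is not given in the sources used here. As deposited, of the 13 messenger RNAs that this ribosome translates, 7 fell in WAT and 5 in BAT on day 4 and 11 in each depot on day 8. None was higher. Of all tested genes, 19.3% and 18.9% were lower in WAT on day 4 and day 8, and 20.6% and 26.1% in BAT. With quantile normalization, 4 of these RNAs were lower and 1 higher in BAT on day 4, and 9 were lower in WAT on day 8. mt-Nd2, a subunit of complex I, fell by 1.24 in WAT on day 8, and mt-Co2, a subunit of cytochrome oxidase, by 1.51 in BAT on the log2 scale.

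Other genes of mitochondrial translation were read from lists chosen by function, and their counts are for the values as deposited unless another scaling is named. Beside them, 34.4% of all tested genes were higher and 19.3% lower with EGCG in WAT on day 4, 44.7% and 18.9% in WAT on day 8, 27.9% and 20.6% in BAT on day 4, and 46.5% and 26.1% in BAT on day 8. The 7 mitochondrial ribosomal proteins under other symbols had 4 lower with EGCG on day 4 in each depot. On day 8, 5 were higher in WAT, and 1 was higher and 3 lower in BAT. Median-ratio scaling gave 3 higher and 1 lower in WAT on day 8. Chchd1, a protein of the small subunit, was lower by 0.36 in WAT and by 0.49 in BAT on day 4 and was higher by 0.46 in WAT on day 8 (log2). Of 14 translation factors tested, 11 were lower in BAT on day 4 and 9 lower and 1 higher on day 8. In WAT 7 were lower and 3 higher on day 4 and 5 lower and 2 higher on day 8. Those WAT counts became 9 lower and 2 higher, and 7 lower and 1 higher, with median-ratio scaling. Gfm1, the elongation factor that moves the ribosome along, fell by 0.78 and 0.99 in BAT on day 4 and day 8, and Taco1, an activator of translation of mt-Co1, fell by 0.79 and 1.19. Of 24 assembly factors, 11 were lower in BAT on day 4, and 13 lower and 4 higher on day 8, and in WAT 8 were higher and 5 lower on day 4 and 7 higher and 3 lower on day 8, which turned to 4 higher and 8 lower on each day with median-ratio scaling. Rpusd3, a pseudouridine synthase, fell by 0.90 and 1.21 in BAT. Of 19 mitochondrial aminoacyl-tRNA synthetases, 11 were lower in BAT on each day, with 2 higher on day 8. In WAT 4 were lower and 2 higher on day 4 and 5 lower and 2 higher on day 8. With median-ratio scaling the WAT counts were 10 lower and 0 higher on day 4 and 9 lower and 2 higher on day 8. Of 10 genes of mitochondrial DNA transcription and upkeep, 4 and 5 were lower in BAT on day 4 and day 8 with none higher, and in WAT 3 were higher and none lower on day 4 and 4 higher and 1 lower on day 8. With median-ratio scaling the WAT counts were 2 higher and 1 lower on day 4 and 1 higher and 3 lower on day 8.

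Nuclear regulators of mitochondrial genes went in both directions. Ppargc1b and Ppargc1a, coactivators that drive mitochondrial genes, were lower with EGCG in all 4 settings. Ppargc1b was at 8.81, 7.72 and 5.53 FPKM in BAT control on day 8 and at 0.794, 0.522 and 0.444 with EGCG, a log2 change of -2.48 (adjusted p = 1.46e-09, limma). Nrf1, whose core motif was counted above, was higher in BAT on day 8, from 5.06, 4.52 and 4.49 FPKM to 9.03, 9.49 and 9.89 (log2 change 0.83, adjusted p = 1.58e-07, limma). Of the 9 regulators tested, 5 were higher and 3 lower there, and 6 higher and 3 lower in WAT on day 4, 4 higher and 2 lower in WAT on day 8, and 1 higher and 2 lower in BAT on day 4. With median-ratio scaling there were 2 higher and 3 lower in WAT on day 4, 3 higher and 4 lower in WAT on day 8 and 5 higher and 4 lower in BAT on day 8.

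Markers of the cells moved with EGCG as well. All 10 adipocyte markers were lower in each of the 4 settings. They summed to 2183 to 2904 FPKM in WAT control on day 4 and 402.1 to 439.6 with EGCG, and to 5212 to 6119 and 147.7 to 163.0 on day 8. All marker sums with EGCG in WAT on day 8 leave out the library that stood apart and so cover 2 libraries. In BAT the adipocyte markers summed to 5321 to 6984 and 1261 to 1311 on day 4, and to 10740 to 10960 and 329.8 to 354.2 on day 8. Leptin (Lep) had no read in 3 of the 24 libraries, and no other adipocyte marker was at 0 in any library. Of the 6 brown adipocyte markers 5 were lower and 1 higher in BAT on day 8, when they summed to 207.7 to 236.4 FPKM in control and 23.0 to 28.4 with EGCG and Ucp1 was listed at 0 in all 3 EGCG libraries. Over the 24 libraries Ucp1 was at 0 in 9, Cidea in 5 and Elovl3 in 1. In the other settings 2 to 3 of these markers were lower and at most 1 higher, with sums of 38.6 to 44.4 against 21.9 to 25.6 in BAT on day 4, 17.6 to 22.3 against 11.8 to 13.7 in WAT on day 4, and 27.1 to 33.7 against 15.7 to 16.7 in WAT on day 8. The part of these losses in the lower levels of the member genes was not tested.

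The other marker lists were read in the same way, with sums over 2 libraries for EGCG in WAT on day 8. Macrophage markers (5 of 6 tested) were higher with EGCG on day 4, 4 in WAT and 3 in BAT, and all 5 were lower on day 8 in both depots. Their sums were 65.2 to 70.5 FPKM in control and 164.3 to 179.7 with EGCG in WAT on day 4, 92.7 to 106.1 and 52.3 to 56.1 in WAT on day 8, 150.5 to 170.6 and 340.0 to 408.7 in BAT on day 4, and 101.5 to 110.3 and 52.5 to 55.6 in BAT on day 8. Endothelial markers (5 of 6 tested) were higher in 4, 4, 5 and 5 genes in WAT on day 4 and day 8 and BAT on day 4 and day 8, with sums of 11.1 to 21.7 in controls and 29.0 to 38.8 with EGCG. Skeletal muscle markers, of which 3 were tested, were higher in all 3 in WAT on day 4 (31.1 to 32.9 against 58.8 to 60.6 FPKM) and in 1 in WAT on day 8 (18.2 to 23.2 against 21.6 to 26.3), and none was called in BAT (8.0 to 34.5 in control, 12.2 to 30.4 with EGCG). Myf5 had no read in 10 of the 24 libraries, Ckm in 2 and Myod1 in 1. Fibroblast and precursor markers (6 genes) were lower in 3 and higher in 1 in WAT on day 4, lower in 6 in WAT on day 8, in 3 in BAT on day 4 and in 5 in BAT on day 8, with sums of 2950 to 10890 FPKM in controls and 1974 to 7176 with EGCG. Their part in the changes of the member genes was not tested.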

How the data were processed

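RNA sequencing reads had been aligned to the mouse genome (mm9) and counted per GENCODE vM1 gene. The submitters' processing notes name FastQC 0.11.9, HISAT2 2.2.0 and HTSeq 0.11. The authors deposited FPKM values in 2 separate tables, with 16 libraries (replicates 1 and 2) and 8 libraries (replicate 3). The steps of the low values gave whole reads, within 0.01 of a read, for 100% of values, and library totals were 39452696 to 52893848 and 16392420 to 41675643 reads. Depth sets the precision of low genes only through counting error.

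The members and gene lists were chosen with earlier results of these data known. For the 16 libraries, log2(FPKM + 1) of genes with at least 1 FPKM in at least 2 libraries was fitted with limma 3.58.1 (R 4.3.3; 8 group means, eBayes with trend, two-sided, 11.4 total degrees of freedom), and p-values were adjusted by Benjamini-Hochberg within each comparison and called under 0.05. The fit was tested on simulated data. Named genes were the 5 highest and 5 lowest log2 changes of each pairwise comparison, the 2 smallest adjusted p in each direction for each difference of effects, the 5 highest and 5 lowest mean levels, members of set interest (Mrpl12, Mrps12, Mrps18a, Mrps18b, Mrps18c, Mrps30, Mrps36, Mrps6, Mrpl3, Mrpl45), untested members, and up to 2 called list genes in each direction. Others were named from counts of joint calls or other features after their values were seen. Alternatives were another pseudocount, no filter, median-ratio and quantile scaling, a replicate block, both tables together, and leaving out libraries. Tables were handled in Python 3.11.15 with pandas 2.3.3 and numpy 2.4.6.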

Additional observations from a re-analysis of the deposited data

Results flagged for a closer look

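The effect of EGCG differed between the depots or the days by the test of the difference itself (limma, adjusted p under 0.05). Effects are signed log2 changes, so a lower one is more negative or less positive. Between depots, 0 genes had a higher and 17 a lower effect in BAT on day 4, and 2 had a higher and 52 a lower effect on day 8. Between days, 37 genes had a higher and 3 a lower effect on day 8 in WAT, and 12 had a higher and 7 a lower effect in BAT. With median-ratio scaling the counts were 1 and 4, 2 and 53, 25 and 5, and 5 and 25, in the same order. The cause was not tested.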

How the results depend on the processing

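Counts are given as genes higher and lower of 76, and only those that moved by more than 1.5 times from the main fit are listed. Where 1 direction alone is named, the count in the other direction stayed within 1.5 times of that in the main fit. With median-ratio scaling they were 1 and 50 for EGCG in WAT on day 4, 12 and 22 in WAT on day 8, 2 higher in BAT on day 8, 41 and 8 for day 8 against day 4 in BAT, 41 higher for BAT against WAT on day 4 and 1 lower on day 8, 1 and 4 for the depot difference on day 4, 5 lower for the day difference in WAT, and 5 and 25 in BAT. Quantile normalization gave 2 higher for EGCG in WAT on day 4, 15 and 18 on day 8, 4 higher in BAT on day 8, 1 lower for BAT against WAT on day 8, 24 and 7 for the day difference in WAT and 18 lower in BAT. Without the filter there were 2 higher for EGCG in WAT on day 4, 4 higher for day 8 in WAT, 8 lower and 1 higher for the depot differences on day 4 and day 8, and 1 lower for the day difference in WAT. All 24 libraries together gave 1 and 60 for EGCG in WAT on day 4, 13 and 30 on day 8, 2 higher in BAT on day 8, 39 higher for day 8 in BAT, 1 lower for BAT against WAT on each day, 1 higher for the depot difference on each day and 25 lower for the day difference in BAT. In that fit Mrpl40 and Mrpl14 turned to -0.00159 and -0.0422 for EGCG in WAT on day 4. The same fit without the WAT day 8 EGCG library of replicate 3, chosen after seeing the data, gave 12 and 25 for EGCG in WAT on day 8, 1 higher for the depot difference on day 8 and 5 lower for the day difference in WAT. The cause was not tested. A pseudocount of 0.1 kept all counts within 1.5 times.

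Leaving out 1 library at a time gave, as higher and lower, 2 to 4 and 15 to 30 for EGCG in WAT on day 4 (2 higher without replicate 2 of control or replicate 1 of EGCG), 20 to 26 and 4 to 8 in WAT on day 8, 1 and 39 to 53 in BAT on day 4, and 4 to 6 and 38 to 47 in BAT on day 8. The day comparisons gave 2 to 6 (2 and 3 without replicate 2 of WAT day 4 and WAT day 8 control) and 24 to 32 in WAT and 17 to 21 and 12 to 15 in BAT. BAT against WAT gave 54 to 61 and 0 on day 4 and 66 to 68 and 0 to 1 on day 8 (1 without replicate 2 of WAT control). The depot differences gave 0 and 5 to 18 on day 4 and 1 to 2 and 42 to 54 on day 8, and the day differences 23 to 39 and 0 to 3 in WAT and 8 to 14 and 5 to 10 in BAT.

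No pairing by replicate number was seen, with correlations of -0.079 to 0.081 between deviations of same-numbered libraries. Counting error also enters these deviations, so a pairing is not excluded. A replicate block kept every count within 1.5 times, with 57 lower for EGCG in BAT on day 4, for example. Depth limits low members most. Mrps36-ps1 had 42 to 110 reads per library in the first table and 0 to 5 in the second, and the cause of this gap was not tested.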
